A study of Mus musculus with 4 samples.

Results

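The genes described here are the well measured mouse Zfp genes, the zinc finger protein genes whose symbol is Zfp followed by a number. A gene was taken when its expected read count averaged at least 200 over the 4 libraries. Chosen by this mean count were 217 of 375 Zfp genes, among 15768 genes in the table, and 158 Zfp genes fell below the limit. The limit used the level of a gene and not its difference between groups. The choice of the Zfp family itself, however, was made with earlier results of these data known. Just inside it lay Zfp775, with a mean count of 201.25, and Zfp626, with 202. Just outside it lay Zfp763, with 198.5, and Zfp593, with 197.75.

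The libraries were RNA-seq of JoMa 1.3, a mouse cell line of neural crest stem cells with a genotype labelled WT. The Lkb1 siRNA group received a pool of siRNAs against Stk11, the gene that encodes the kinase LKB1, and the control siRNA group received a non-targeting pool, each at 60 nM and 72 h before collection. Each group held 2 libraries, numbered 1 and 2 after the batch in the labels, so each batch held 1 library of either group. The study asked what LKB1 does in enteric nervous system development, and its cells here are 1 line in culture; of 2 transfection reagents named in the labels, the one used for each library is not given.

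Most Zfp proteins carry tandem C2H2 zinc fingers, small zinc-holding folds that each read a few bases of DNA. In mammals, many of them also carry a KRAB box, a domain that binds TRIM28, which in turn brings the histone methyltransferase SETDB1 and represses chromatin at retroelements and imprinted loci. Other Zfp proteins have no KRAB box: some act as general transcription factors, some bind RNA or the mitotic spindle, and the Zfp36 family uses CCCH fingers to mark messenger RNAs with AU-rich elements for decay through the CCR4-NOT deadenylase.

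Counts summed to between 17426719 and 19324675 per library. CPM values here are counts scaled to library size and to a TMM factor for each library. The targeted gene, Stk11, had 81.4 and 82.0 CPM in the Lkb1 siRNA libraries, against 121.5 and 117.9 CPM in the control siRNA libraries. Its log2 fold change was -0.55 (SE 0.0659) at an adjusted p = 0.0378 in edgeR without a block. Of 10 neural crest markers, 7 averaged at least 1 FPKM (fragments scaled by transcript length and library depth), while the defining markers Sox10 and Foxd3 stayed under 0.1 FPKM in every library. Of 5 smooth muscle markers, 2 averaged at least 1 FPKM, and Myh11 and Cnn1 stayed under 0.1 FPKM in every library. The 5 summed to 327 and 308 FPKM with Lkb1 siRNA, against 409 and 382 FPKM with control siRNA. Their part in the results below was not tested. In such bulk libraries, fewer cells of a type and less RNA per cell cannot be told apart.

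Per length, the Zfp genes were mostly low. Their mean FPKM over the 4 libraries ran between 1.22 and 108, with a median of 6.91, and together they held 0.827% of all counts. Zfp207, which encodes the spindle protein BuGZ, had the highest level at 108 FPKM. It was followed by the decay factors Zfp36l2, Zfp36 and Zfp36l1 at 69.0, 65.6 and 55.0 FPKM, and by Zfp740 at 52.4 FPKM. The 94 genes with a KRAB box had a median of 4.95 FPKM and the 122 genes without one a median of 9.60 FPKM. For Zfp469 no reading frame was matched, so it is in neither class. A KRAB box was taken as present when at least 12 of 18 anchor residues were found in the longest reading frame of a gene's transcripts, and 4 genes that scored 9 to 11 were counted as without one.

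After Lkb1 siRNA, 160 of the 217 genes (73.7%) were higher in the group mean, against 50.2% of the 12222 genes tested and 48.9% of the 9249 tested genes with a mean count of at least 200. The shift was small, in a family chosen with earlier results of these data known. The median log2 fold change of the Zfp genes was 0.05, against 0.00 for all genes tested. It was 0.06 in batch 1, with 148 genes higher, and 0.05 in batch 2, with 140 higher. In both batches 107 Zfp genes (49.3%) were higher and 36 (16.6%) lower, while the shares over all genes tested were 33.8% and 33.4%. The median depended on single libraries: it was 0.03 with control siRNA replicate 1 left out, and also with Lkb1 siRNA replicate 2 left out. With control siRNA replicate 2 left out it was 0.09, and with Lkb1 siRNA replicate 1 left out 0.10. The summed level of the 217 genes was 8289 and 8589 CPM in the Lkb1 siRNA libraries, against 7946 and 8253 CPM in the control siRNA libraries. The Lkb1 siRNA library was thus the higher one in either batch, and the groups did not overlap, although the gap between Lkb1 siRNA replicate 1 and control siRNA replicate 2 was narrow.

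**Figure D1:**
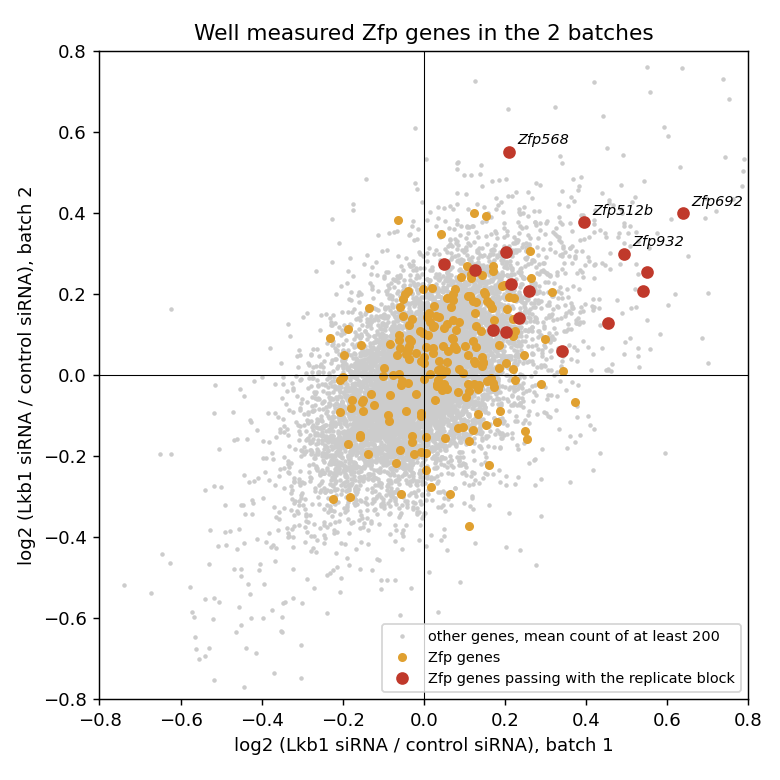
Each point is a gene, with its log2 fold change (Lkb1 siRNA over control siRNA) in batch 1 on the x axis and in batch 2 on the y axis; grey points are other genes with a mean count of at least 200, some of which lie outside the axes, amber points are Zfp genes and red points are the 16 Zfp genes that passed with the replicate block. Of the 217 Zfp genes, 107 lie above 0 on both axes and 36 below 0 on both.

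No single Zfp gene passed the test without a block, where the adjusted p (Benjamini-Hochberg, over all genes tested) had to be under 0.05. edgeR's quasi-likelihood test called 0 of the 217 higher and 0 lower, and it called 0.0327% of all genes tested higher and 0.0491% lower. At an unadjusted p under 0.05, 11 Zfp genes (5.07%) were higher and 0 lower, against 5.61% and 5.53% of all genes tested. DESeq2 called 1 Zfp gene higher, Zfp512b, and 0 lower, against 0.147% and 0.254% of all genes. The calls changed when 1 library was left out. Leaving out control siRNA replicate 2 gave 6 called higher and 0 lower, where 1.10% and 0.712% of all genes were called. Leaving out control siRNA replicate 1 gave 2 higher, Zfp512b and Zfp568, and 1 lower, Zfp503 (edgeR), where 0.886% and 1.15% of all genes were called. In these fits the lone library of a group is assumed to vary like the other group.

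With the batch as a replicate block, edgeR called 16 Zfp genes (7.37%) higher and 0 lower, against 6.59% of all genes tested higher and 6.99% lower. At an unadjusted p under 0.05 with the block, 45 Zfp genes (20.7%) were higher and 5 (2.30%) lower, against 13.2% and 13.5% of all genes. The share called higher was thus near that of all genes, and the share at an unadjusted p was above it. DESeq2 with the block gave an adjusted p for 106 of the 217 Zfp genes and called 1 of these higher and 0 lower, against 0.685% and 1.1% of the 7009 genes with an adjusted p. Counts of the 2 groups did not overlap, with both Lkb1 siRNA libraries above both control siRNA libraries, in 70 Zfp genes (32.3%), against 21.2% of all genes tested. The reverse was seen in 11 Zfp genes (5.07%), against 21.4% of all genes. The 16 genes were Zfp512b, Zfp692, Zfp932, Zfp568, Zfp36, Zfp398, Zfp335, Zfp579, Zfp207, Zfp408, Zfp598, Zfp160, Zfp346, Zfp638, Zfp280c and Zfp445. Their fold changes lay between 1.10 and 1.44, and 5 of them carry a KRAB box. The groups were apart in all of them but Zfp36, a gap that the choice by p favours.

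The gene with the smallest p was Zfp512b, a nuclear C2H2 protein gene whose human counterpart has been linked to amyotrophic lateral sclerosis. It had 90.3 and 92.4 CPM in the Lkb1 siRNA libraries, against 68.7 and 71.1 CPM in the control siRNA libraries. Both libraries of each group lay close together and far from the other group. Its log2 fold change was 0.39 (SE 0.0676, adjusted p = 0.0908 without a block and 7.55e-10 with the replicate block, edgeR), and it was 0.39 in batch 1 and 0.38 in batch 2.

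The largest fold change was that of Zfp692, also known as AREBP, whose product has been described as a substrate of AMPK, a kinase that LKB1 activates. Zfp692 had 18.5 and 16.9 CPM in the Lkb1 siRNA libraries, against 11.8 and 12.8 CPM in the control siRNA libraries. All 4 values keep the groups apart by more than the distance within a group. Its log2 fold change was 0.52 (SE 0.119, adjusted p = 0.182 without a block and 2.99e-05 with the replicate block, edgeR), and it was 0.64 in batch 1 and 0.40 in batch 2.

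Promoters of both genes are shown because they carry the clearest differences here and differ in sequence. Each is the 250 bases before the annotated start, 5′ to 3′ along the gene, from RefSeq on build GRCm38.p6; the counts were made on build GRCm39, and no coordinates were carried over. The Zfp512b promoter lies at chr2:181592462-181592711, minus strand. Its capitals mark 37 CpG pairs, and 79.2% of its bases are G or C. The Zfp692 promoter lies at chr11:58306819-58307068, plus strand. It has 13 CpG pairs and 56.4% G and C, and its capitals mark the element that ZNF143 and THAP11 bind in human cells, which starts 48 bases before the gene's start.
Zfp512b: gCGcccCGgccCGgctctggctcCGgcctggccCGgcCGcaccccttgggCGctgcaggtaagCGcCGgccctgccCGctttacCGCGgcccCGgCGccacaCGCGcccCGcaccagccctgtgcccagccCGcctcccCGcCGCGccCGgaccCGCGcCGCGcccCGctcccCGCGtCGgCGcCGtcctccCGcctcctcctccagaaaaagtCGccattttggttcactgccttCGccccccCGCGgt
Zfp692: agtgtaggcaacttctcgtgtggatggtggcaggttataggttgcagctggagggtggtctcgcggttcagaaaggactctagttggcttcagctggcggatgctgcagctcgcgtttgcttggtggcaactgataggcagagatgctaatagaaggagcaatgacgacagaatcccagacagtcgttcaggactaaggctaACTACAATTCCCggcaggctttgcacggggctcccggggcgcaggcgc

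**Figure D2:**
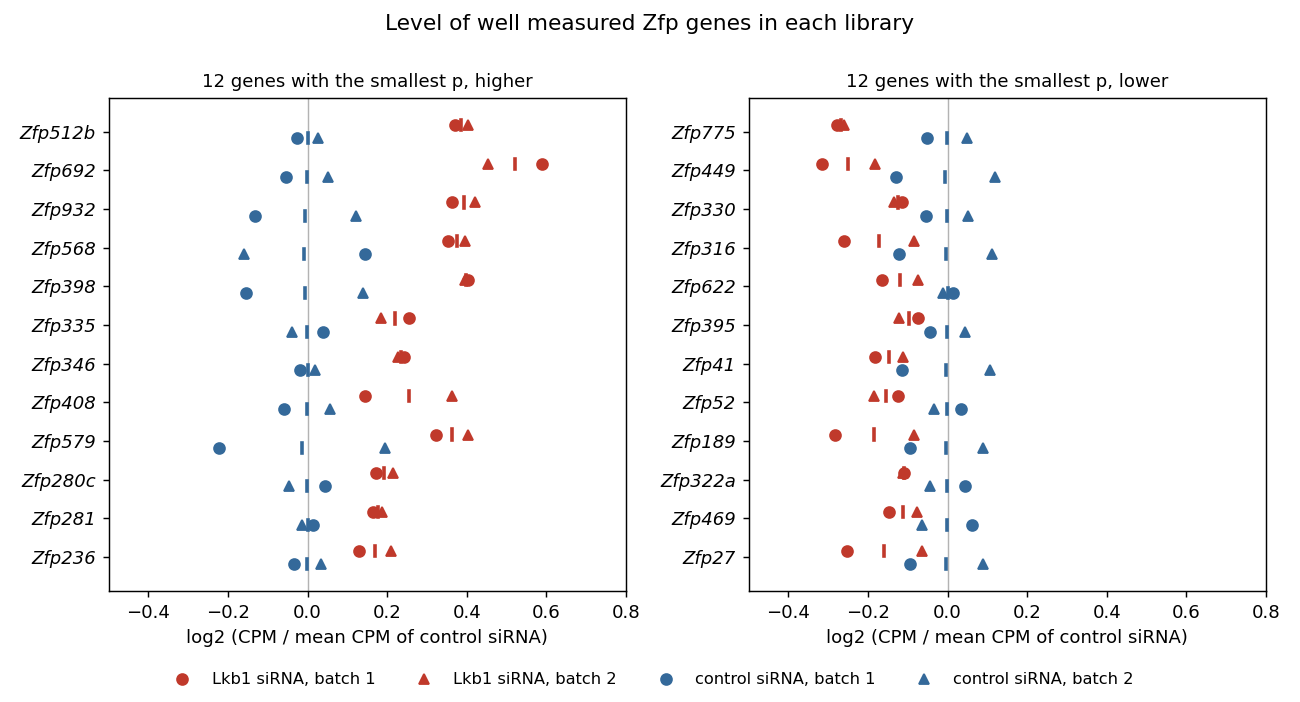
Each row is a Zfp gene and each point a library, placed by the log2 of its CPM over the mean CPM of the control siRNA group; red stands for Lkb1 siRNA, blue for control siRNA, circles for batch 1, triangles for batch 2 and bars for the group mean of the points. The 12 genes with the smallest p that were higher are on the left and the 12 that were lower on the right. The groups do not overlap for any of the 12 on the left, a gap that the choice by smallest p favours. Zfp692 lies farthest from its controls.

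Among KRAB repressors with known targets, 4 of 8 listed genes were well measured, with a median log2 fold change of 0.26. The call with the replicate block reached 3 of them (75%), all higher, against 6.59% of all genes tested higher and 6.99% lower. This list and the lists below were chosen with earlier results of these data known, so their shares describe them and test nothing. Zfp932 represses endogenous retroviruses in mouse embryonic stem cells. It had 26.7 and 27.8 CPM in the Lkb1 siRNA libraries, against 18.9 and 22.6 CPM in the control siRNA libraries. The groups did not overlap, with a log2 fold change of 0.39 (SE 0.110, adjusted p = 0.262 without a block and 0.000153 with it, edgeR). Its counts include reads shared with other genes, so its own level is uncertain. Zfp568, which silences a placental transcript of Igf2, had 28.9 and 29.8 CPM in the Lkb1 siRNA libraries, against 24.996 and 20.3 CPM in the control siRNA libraries. Its groups did not overlap either, and its log2 fold change was 0.38 (SE 0.114, adjusted p = 0.304 without a block and 0.000156 with it, edgeR). It was 0.23 without control siRNA replicate 2.

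The imprint guardians Zfp445 and Zfp57, which keep DNA methylation at imprinted loci, differed from each other. Zfp445, whose counts also include shared reads, had 114.5 and 123.2 CPM in the Lkb1 siRNA libraries, against 101.7 and 114.0 CPM in the control siRNA libraries. The lower Lkb1 siRNA value lay just above the higher control siRNA value, and the log2 fold change was 0.14 (SE 0.0787, adjusted p = 0.536 without a block and 0.0431 with it, edgeR). It was 0.09 without Lkb1 siRNA replicate 2, and 0.06 and 0.22 without control siRNA replicates 1 and 2. Zfp57 had 31.4 and 29.8 CPM in the Lkb1 siRNA libraries, against 28.8 and 32.7 CPM in the control siRNA libraries. Its groups overlapped, and its log2 fold change was -0.01 (SE 0.0965, adjusted p = 0.979 without a block, edgeR). The difference between the pair was not tested.

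Among Zfp genes for RNA, translation and spindle factors, 9 of 10 listed genes were well measured, their median log2 fold change was 0.15 and 8 were higher in the mean. The replicate block called 4 (44.4%) higher and 0 lower, against 6.59% and 6.99% of all genes tested. At an unadjusted p under 0.05 with the block, 6 (66.7%) were higher and 0 lower, against 13.2% and 13.5%. Zfp207, whose product carries BUB3 to kinetochores, had 213.8 and 212.5 CPM in the Lkb1 siRNA libraries, against 206.4 and 175.8 CPM in the control siRNA libraries. Control siRNA replicate 2 stood below the other 3 libraries, and the log2 fold change was 0.05 in batch 1 and 0.27 in batch 2 (adjusted p = 0.516 without a block and 0.0110 with it, edgeR). Zfp598, a ubiquitin ligase gene whose product senses collided ribosomes, had 74.1 and 63.4 CPM in the Lkb1 siRNA libraries, against 62.9 and 57.4 CPM in the control siRNA libraries. Its groups nearly touched, with a log2 fold change of 0.19 (SE 0.0911, adjusted p = 0.476 without a block and 0.0170 with it, edgeR). It was 0.08 without Lkb1 siRNA replicate 1, 0.30 without Lkb1 siRNA replicate 2 and 0.12 without control siRNA replicate 2. Zfp207 was at 0.28 without control siRNA replicate 1 and at 0.05 without control siRNA replicate 2.

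Zfp346, which encodes a protein that binds double-stranded RNA, had 33.6 and 33.3 CPM in the Lkb1 siRNA libraries, against 28.1 and 28.8 CPM in the control siRNA libraries. Its libraries agreed closely within either group, and its log2 fold change was 0.23 (SE 0.0851, adjusted p = 0.358 without a block and 0.0230 with it, edgeR). Zfp638, whose human counterpart takes part in silencing unintegrated retroviral DNA, had 104 and 106 CPM in the Lkb1 siRNA libraries, against 90.6 and 98.1 CPM in the control siRNA libraries. Its groups were apart at a log2 fold change of 0.15 (adjusted p = 0.0294 with the block and 0.454 without, edgeR), or 0.10 without control siRNA replicate 1. Zfp326 and Zfp830, both tied to splicing, did not pass with the block, at log2 fold changes of 0.15 and 0.18 (adjusted p = 0.0780 and 0.123, edgeR). Zfp106, an RNA-binding protein gene that motor neurons need, had 356.9 and 352.1 CPM in the Lkb1 siRNA libraries, against 365.8 and 342.6 CPM in the control siRNA libraries. Its groups overlapped and its log2 fold change was 0.00 (SE 0.0672, adjusted p = 0.997, edgeR). Zfp622, which acts in maturation of the large ribosomal subunit, was the 1 well measured gene of the list that was lower in the mean, at a log2 fold change of -0.12 (SE 0.0772, adjusted p = 0.598 without a block, edgeR). Zfp593, on the list but below the count limit, was at -0.32 (SE 0.163, adjusted p = 0.505 without a block and 0.0563 with it, edgeR).

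Of the CCCH decay factors, 3 of 4 listed genes were well measured, and all 3 were among the 5 Zfp genes with the highest FPKM. Zfp36, which encodes tristetraprolin, had 90.7 and 113.8 CPM in the Lkb1 siRNA libraries, against 71.6 and 109.1 CPM in the control siRNA libraries. The groups overlapped, since either batch 2 library lay above either batch 1 library. Its log2 fold change was 0.34 in batch 1 and 0.06 in batch 2, and 0.18 over both (SE 0.172, adjusted p = 0.742 without a block and 0.00548 with it, edgeR); it was -0.09 and 0.51 without control siRNA replicates 1 and 2, and 0.33 and 0.01 without Lkb1 siRNA replicates 1 and 2. Zfp36l1 had 147 and 158 CPM in the Lkb1 siRNA libraries, against 133 and 154 CPM in the control siRNA libraries. Zfp36l2 had 241 and 214 CPM in the Lkb1 siRNA libraries, against 231 and 209 CPM in the control siRNA libraries. Neither passed with or without the block, and their log2 fold changes were 0.08 and 0.05. Of the CCR4-NOT subunits, all 11 were tested and 9 were higher in the mean, with a median log2 fold change of 0.05. The block called 3 higher, Cnot6, Cnot7 and Cnot10, and 0 lower, against 6.59% and 6.99% of all genes. At an unadjusted p under 0.05 with the block, 3 (27.3%) were higher and 0 lower, against 13.2% and 13.5%.

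Among regulators of neural and mesenchymal development, 9 of 13 listed genes were well measured, with 6 higher in the mean and a median log2 fold change of 0.08. The block called Zfp335 alone (11.1% of the 9), as higher, against 6.59% of all genes tested higher and 6.99% lower. Zfp335 is needed for neural progenitors, and mutations of its human counterpart cause microcephaly. It had 53.5 and 51.0 CPM in the Lkb1 siRNA libraries, against 46.1 and 43.6 CPM in the control siRNA libraries. The groups did not overlap, and its log2 fold change was 0.22 in either batch (SE 0.0774, adjusted p = 0.354 without a block and 0.00967 with it, edgeR). Zfp521, a regulator of neural and adipocyte fate, had 29.2 and 42.3 CPM in the Lkb1 siRNA libraries, against 32.4 and 45.1 CPM in the control siRNA libraries. Its groups overlapped and the batches set its level apart. Zfp503, a corepressor gene active in the developing brain, had 50.8 and 54.0 CPM in the Lkb1 siRNA libraries, against 48.5 and 66.3 CPM in the control siRNA libraries. Its direction turned between the batches, with log2 fold changes of 0.07 and -0.29. Over both it was -0.13, but 0.11 without control siRNA replicate 2. Zfp462, Zfp24 and Zfp292 were higher in the mean at log2 fold changes of 0.08, 0.14 and 0.14, with the groups apart, and none of them passed with the block.

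Of general transcription and chromatin regulators, 18 of 19 listed genes were well measured, 15 were higher in the mean and the median log2 fold change was 0.06. The block called 0 of them in either direction; at an unadjusted p under 0.05 with the block, 3 (16.7%) were higher and 0 lower, against 13.2% and 13.5% of all genes. Zfp281, a pluripotency factor that recruits a deacetylase complex, had 50.4 and 51.1 CPM in the Lkb1 siRNA libraries, against 45.4 and 44.5 CPM in the control siRNA libraries. The groups were apart, with a log2 fold change of 0.18 (SE 0.0742, adjusted p = 0.422 without a block and 0.0514 with it, edgeR). Zfp91 was higher by 0.09 and Zfp148 by 0.03 on the log2 scale, and neither passed. Zfp143, whose product binds the promoter element named above, had 28.5 and 26.6 CPM in the Lkb1 siRNA libraries, against 27.6 and 27.0 CPM in the control siRNA libraries. Its groups overlapped, and its log2 fold change was 0.01 (SE 0.0913, adjusted p = 0.969, edgeR).

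The remaining genes called higher with the block belong to none of these lists. Zfp398 had 14.7 and 14.6 CPM in the Lkb1 siRNA libraries, against 9.99 and 12.2 CPM in the control siRNA libraries, with shared reads in its counts. Zfp579 had 15.1 and 15.998 CPM in the Lkb1 siRNA libraries, against 10.4 and 13.8 CPM in the control siRNA libraries. Zfp160, a KRAB gene, had 22.5 and 23.4 CPM in the Lkb1 siRNA libraries, against 16.4 and 21.4 CPM in the control siRNA libraries. In these 3 genes control siRNA replicate 1 was the lowest library, and the log2 fold change was larger in batch 1 than in batch 2, at 0.55 and 0.25 for Zfp398, 0.54 and 0.21 for Zfp579, and 0.46 and 0.13 for Zfp160. Without control siRNA replicate 1, the log2 fold change over all libraries left was 0.26 for Zfp398, 0.17 for Zfp579 and 0.10 for Zfp160, and without control siRNA replicate 2 it was 0.59 for Zfp579 and 0.48 for Zfp160. Zfp408, whose human counterpart is mutated in retinal vascular disease, had 27.6 and 32.05 CPM in the Lkb1 siRNA libraries, against 23.9 and 25.9 CPM in the control siRNA libraries. Zfp280c had 43.5 and 44.8 CPM in the Lkb1 siRNA libraries, against 39.8 and 37.4 CPM in the control siRNA libraries. Neither pair of groups overlapped, and the adjusted p with the block was 0.0156 for Zfp408 and 0.0407 for Zfp280c (edgeR). The log2 fold change of Zfp408 was 0.26, and 0.15 without Lkb1 siRNA replicate 2.

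Lower genes showed smaller differences. The one with the smallest p was Zfp775, with 9.79 and 9.92 CPM in the Lkb1 siRNA libraries, against 11.5 and 12.3 CPM in the control siRNA libraries. The groups were apart, but the log2 fold change of -0.27 (SE 0.129) did not pass, with an adjusted p = 0.477 without a block and 0.118 with it (edgeR). Zfp449 had 11.04 and 12.1 CPM in the Lkb1 siRNA libraries, against 12.6 and 14.9 CPM in the control siRNA libraries, and it did not pass either (adjusted p = 0.126 with the block, edgeR). Zfp330, which encodes a nucleolar protein, had 51.2 and 50.4 CPM in the Lkb1 siRNA libraries, against 53.3 and 57.4 CPM in the control siRNA libraries. Its log2 fold change was -0.12. Zfp395 had 125 and 121 CPM in the Lkb1 siRNA libraries, against 127 and 136 CPM in the control siRNA libraries. All 4 genes kept their groups apart, at a distance that was small beside the spread of either group for Zfp449 and Zfp395.

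Genes with a KRAB box had a median log2 fold change of 0.05, with 70 of 94 higher in the mean, and genes without one had 0.07, with 90 of 122 higher. With the block, 5 KRAB genes (5.32%) and 11 others (9.02%) were called higher, against 6.59% of all genes tested. The difference between the classes was not tested. The number of C2H2 fingers ran up to 36, with a median of 12 in KRAB genes and 7 in the others. In 8 genes no finger of the C2H2 pattern was found, among them the Zfp36 family, Zfp330 and Zfp503. Across the 216 genes with a matched reading frame, the number of fingers and the log2 fold change had a Spearman rho of 0.01, a description over genes that share the same 4 libraries. The log2 fold changes of the Zfp genes had an SD of 0.12, against 0.23 over all genes tested, which include genes with lower counts. A log2 fold change beyond 0.2 in either direction was seen in 24 Zfp genes (11.1%), close to the 12.6% of all tested genes with a mean count of at least 200.

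**Figure D3:**
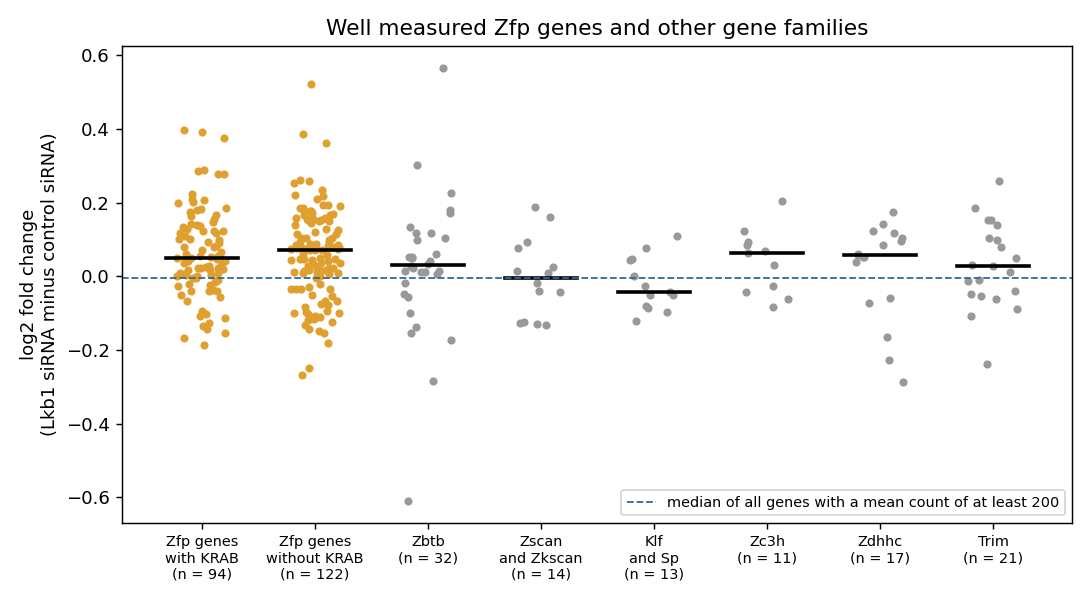
Each point is a gene with a mean count of at least 200, with its log2 fold change (Lkb1 siRNA minus control siRNA) on the y axis and its family on the x axis; black bars are family medians, and Zfp469 is left out. The medians of Zfp genes with a KRAB box, at 0.05, and without one, at 0.07, lie above the dashed median of all such genes, at -0.00357.

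Other families were read with the same minimum mean count of 200, but not matched in level. Among Zbtb genes, which join zinc fingers to a BTB domain, 23 of 32 were higher in the mean, with a median log2 fold change of 0.03. Zscan and Zkscan genes, the zinc finger genes with a SCAN domain, had 7 of 14 higher and a median of -0.00454, and Klf and Sp genes had 5 of 13 higher and a median of -0.04. Zc3h genes, which carry CCCH fingers, had 7 of 11 higher and a median of 0.06. Among families named for other functions, 12 of 17 Zdhhc palmitoyltransferase genes were higher at a median of 0.06, and 12 of 21 Trim genes at a median of 0.03. With the block edgeR called 2 Zbtb genes higher and 1 lower, 1 Zscan or Zkscan gene higher, 1 Zc3h gene higher, 1 Zdhhc gene lower and 1 Trim gene higher, against 6.59% and 6.99% of all genes. No difference between families was tested. The 126 tested Zfp genes under the mean count of 200 had a median of 0.06, with 0.13 in batch 1 and -2.42e-05 in batch 2.

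All 24 listed genes of the KRAB corepressor complex and its silencing partners, also chosen with earlier results known, were tested. Of these, 19 were higher in the mean, with a median log2 fold change of 0.04. The test without a block called 0 of them in either direction; at an unadjusted p under 0.05, 5 were higher and 1 lower, against 5.61% and 5.53% of all genes. The block called 6 higher, Setdb1, Dnmt3b, Morc3, Smarcad1, Tasor and Morc2a, and 1 lower, Cbx3. These were 25% and 4.17% of the list, against 6.59% and 6.99% of all genes. Dnmt3b had the lowest level of the list, at 4.04 and 4.37 CPM with Lkb1 siRNA, against 2.67 and 2.75 CPM with control siRNA. Setdb1, the histone methyltransferase of the complex, had 147.3 and 147.2 CPM in the Lkb1 siRNA libraries, against 123.9 and 120.5 CPM in the control siRNA libraries. Its groups were far apart, with a log2 fold change of 0.27 (SE 0.0648, adjusted p = 0.196 without a block and 3.86e-06 with it, edgeR). Cbx3, which encodes a heterochromatin protein, had 248 and 255 CPM in the Lkb1 siRNA libraries, against 302 and 276 CPM in the control siRNA libraries. It was lower by a log2 fold change of -0.20 (SE 0.0715, adjusted p = 0.358 without a block and 0.000962 with it, edgeR). Trim28 itself was higher by 0.10 on the log2 scale and did not pass with or without the block (adjusted p = 0.149 and 0.596, edgeR).

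Promoter sequence was read for the 176 Zfp genes found in the RefSeq table, which gave 215 windows of 250 bases before a start. In 62.3% of these windows, the first 12 transcribed bases were found at the start of a GENCODE transcript of the gene. For the other windows the start was not matched in this way. Windows were searched on both strands for fixed letters. The ZNF143 and THAP11 element, was in 9.30% of Zfp windows, against 1.93% of the windows of all genes tested and 0.87% of all 32851 windows. The plain CCAAT box, CCAAT, was in 45.1% of Zfp windows, against 35.9% for genes tested and 33.9% for all windows. The ETS core, CCGGAAG, was in 15.4%, against 13.3% and 6.91%, and the GC box, GGGCGG, was in 47.9%, against 58.0% and 32.7%. Of the other motifs searched, the NRF1 element was in 3.26% of Zfp windows, against 1.61% for genes tested and 0.78% for all windows, and the E-box, CACGTG, in 5.58%, against 8.25% and 6.02%. The element was in the promoters of 20 Zfp genes, 15 of them among the 80 KRAB genes with a window. These 20 genes had a median log2 fold change of 0.02, with 13 higher in the mean, and the 156 genes with a window and no element had 0.07, with 123 higher. A match is a run of letters, not a shown binding site.

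Stretches around the element show how it lies in 5 genes that were higher or lower, with the element in capitals and each sequence read 5′ to 3′ along its gene (RefSeq, GRCm38.p6). They are from chr4:147848425-147848464, minus strand for Zfp933, chr13:67553153-67553192, minus strand for Zfp748, chr7:6383159-6383198, plus strand for Zfp28, chr4:49521140-49521175, plus strand for Zfp189 and chr7:29815954-29815993, plus strand for Zfp790. In Zfp933 and Zfp28 the element reads along the gene, as in Zfp692 above, and in Zfp748, Zfp189 and Zfp790 it reads along the opposite strand.
Zfp933: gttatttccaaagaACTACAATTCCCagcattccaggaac
Zfp748: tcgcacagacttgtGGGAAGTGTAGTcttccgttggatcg
Zfp28: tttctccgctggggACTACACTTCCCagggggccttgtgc
Zfp189: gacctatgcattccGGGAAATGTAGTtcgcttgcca
Zfp790: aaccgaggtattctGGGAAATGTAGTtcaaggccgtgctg
Genes with this element went both ways and none of these 5 passed with the block. Zfp933 had 13.3 and 17.8 CPM in the Lkb1 siRNA libraries, against 12.2 and 13.4 CPM in the control siRNA libraries, a log2 fold change of 0.28, which was 0.06 without Lkb1 siRNA replicate 2 and 0.47 without Lkb1 siRNA replicate 1. Zfp748 had 15.996 and 17.1 CPM in the Lkb1 siRNA libraries, against 13.7 and 14.98 CPM in the control siRNA libraries, and was the 1 of the 5 whose groups were apart. Zfp28 had a log2 fold change of 0.19, Zfp189 of -0.18 and Zfp790 of -0.13. Leaving out single libraries gave values between 0.02 and 0.37 for Zfp28, between -0.28 and -0.08 for Zfp189 and between -0.24 and -0.02 for Zfp790.

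Zfp transcripts are long, and long genes as a whole were slightly higher after Lkb1 siRNA. Lengths computed from count and FPKM gave the Zfp genes a median of 3680 nucleotides, against 2691 over all genes tested. When all genes tested were put into 10 equal classes of length, the shortest class had a median log2 fold change of -0.07 and the longest one of 0.04. In each of the 6 classes that hold 20 or more Zfp genes, the median of the Zfp genes was above that of all genes, with the smallest gap in the class between 3184 and 3831 nucleotides, at 0.02 for both. The Spearman rho of length and log2 fold change was 0.08 across the Zfp genes and 0.18 across all genes tested, again over genes that share 4 libraries. With the length trend removed from each library, the median of the Zfp genes was 0.04, with 147 of 217 (67.7%) higher in the mean. Over all genes tested the median was then 0.00, with 50.4% higher. With the block as well, 13 Zfp genes were called higher and 0 lower, against 5.92% and 6.59% of all genes. All 13 were among the 16, and the 3 lost were Zfp445, Zfp638 and Zfp280c.

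**Figure D4:**
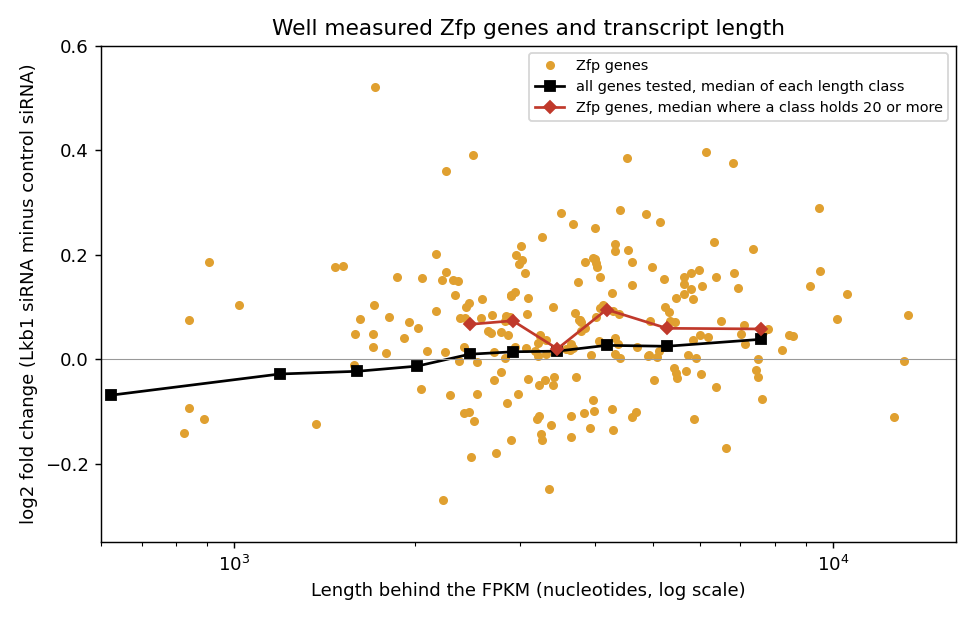
Amber points are Zfp genes, with the length behind the FPKM in nucleotides on a log x axis and the log2 fold change (Lkb1 siRNA minus control siRNA) on the y axis; red diamonds are medians of Zfp genes and black squares medians of all genes tested in 10 classes of length. The black line runs between -0.07 and 0.04, and the red line lies above it in the 6 classes drawn.

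The batches differed in Zfp genes too. In a fit with siRNA and batch, 18 Zfp genes (8.29%) were higher in batch 2 than in batch 1 and 3 (1.38%) lower, against 6.3% and 6.62% of all genes tested (edgeR, adjusted p under 0.05). KRAB genes had a median log2 difference of 0.13, batch 2 minus batch 1, with 11 of 94 called higher and 0 lower; at an unadjusted p under 0.05, 37 (39.4%) were higher and 1 (1.06%) lower, against 13.3% and 12.8% of all genes. Genes without a KRAB box had a median of 0.04, with 7 called higher and 3 lower. At an unadjusted p under 0.05, 20 of these (16.4%) were higher and 6 (4.92%) lower (edgeR). The difference between the classes was not tested. A median of 0.15 was also seen in the 24 Zfp genes with shared reads and in the 126 tested Zfp genes under the mean count of 200. The largest differences were those of Zfp521, at 0.50 (SE 0.0721, adjusted p = 1.10e-09), and Zfp36, at 0.46 (SE 0.0532, adjusted p = 4.58e-15, both edgeR). Zfp131 was lower in batch 2 by a log2 difference of -0.20 and Zfp598 by -0.18 (adjusted p = 0.0185 and 0.0261, edgeR). Since each batch held both groups, batch and siRNA are separate terms. What the batches were beyond their number is not in the labels.

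**Figure D5:**
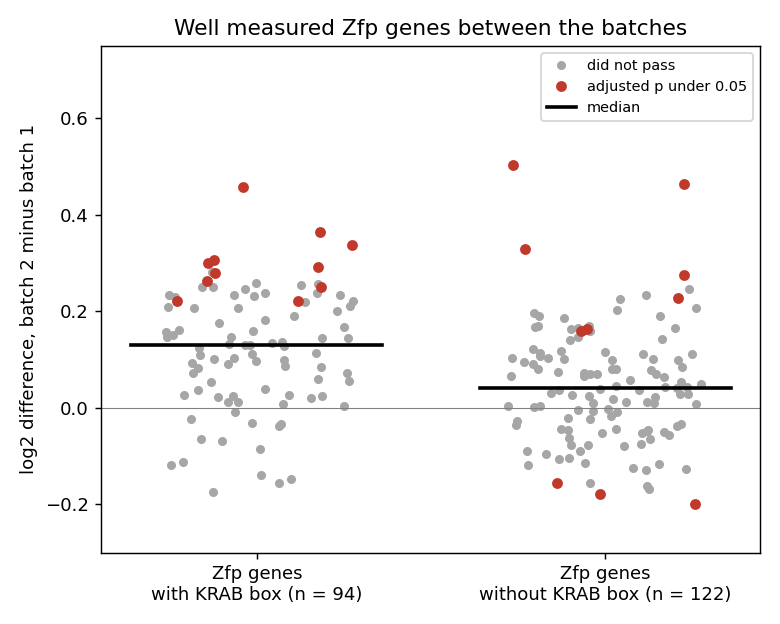
Each point is a Zfp gene, with the log2 difference between batches (batch 2 minus batch 1, siRNA in the fit) on the y axis, in KRAB genes on the left and in genes without a KRAB box on the right; red points passed an adjusted p under 0.05 and bars are medians. KRAB genes have a median of 0.13 with 11 red points, all above 0, and the others a median of 0.04 with 7 red points above 0 and 3 below.

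Zfp genes often lie in clusters. In the order of genes on GRCm38, 69 of the 217 had another well measured Zfp gene as their neighbour, in 28 pairs or runs of up to 4. Neighbours had a median log2 fold change of 0.04, with 46 of 69 higher in the mean, and the other genes had 0.06, with 114 of 148 higher. Neighbours did not always go together: in the run of 4 that holds Zfp568, the log2 fold changes lay between -0.16 and 0.38. The gene beside Zfp692 had a log2 fold change of 0.22, so both of that pair were higher.

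No single transcript of a Zfp gene was called. Of 1134 transcripts listed, 818 were tested, and edgeR called 0 higher and 0 lower, with or without the block, as it did for 0.0% of all 34279 transcripts tested. At an unadjusted p under 0.05 without a block, 47 (5.75%) were higher and 19 (2.32%) lower, against 3.13% and 3.61% of all transcripts. With the block 25 (3.06%) were higher and 14 (1.71%) lower, against 2.13% and 3.01%. The median SE of a transcript's log2 fold change was 0.64, against 0.11 for a gene's. The main transcript of Zfp512b, with 80.9% of the gene's reads, had 72.8 and 84.9 CPM in the Lkb1 siRNA libraries, against 50.9 and 53.0 CPM in the control siRNA libraries. These groups were apart as for the gene, but with a log2 fold change of 0.60 it did not pass (adjusted p = 0.687, edgeR without a block). The error of assigning reads to transcripts is not in these values.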

How the data were processed

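Per the submitters' processing notes, RSEM 1.2.8, HISAT2 2.0.4 and Bowtie2 2.2.5 are listed with GRCm39, with neither roles nor order given. Per the file headers, the deposited tables held read counts, FPKM, TPM and normalised read counts for each library. The deposited read counts were expected counts, and 24 of the 217 Zfp genes had counts farther than 0.01 from a whole number, which are called shared reads above. The deposited FPKM, made by the authors relative to length and depth, gave levels and transcript lengths. The deposited TPM, which the authors scaled by length and depth, and the deposited normalised read count, a signal scaled by 1 factor per library, entered no test. Cells with a doubled decimal point, 41 in the gene table, were read with 1 point.

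Rounded counts went into edgeR 4.0.16 (R 4.3.3; robust quasi-likelihood test, TMM, minimum count 10), which left 12222 genes and all 217 Zfp genes. P-values were adjusted over all genes tested (Benjamini-Hochberg, threshold 0.05). The log2 fold change is Lkb1 siRNA minus control siRNA. DESeq2 1.42.0 and limma 3.58.1 served as alternatives. The labels give the batch, so the numbers pair the libraries; over genes, the departures from the group means correlated at 0.259 within a batch. The common biological coefficient of variation was 6.39% without the block and 3.15% with it. The labels do not say whether cultures were independent beyond that, so p-values measure the spread between these libraries. With so few libraries, a gene's variance in these tests was drawn in part from all genes together, and more so with the block. A small p with the block thus does not rest on the spread of that gene alone. Each SE of an siRNA log2 fold change given here is from the fit without a block. Reading frames came from GENCODE transcripts and promoters from RefSeq, both on GRCm38. Fits were tested on simulated data in which all genes shared the same biological coefficient of variation. That check cannot vouch for block calls of single genes.

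The Zfp genes and all lists were chosen with earlier results of these data known. Named genes were Stk11, the 12 Zfp genes with the smallest p in each direction, the 5 with the highest FPKM, role list genes, genes next to the count limit, and those with the largest batch differences; a selection of these is described. Zfp160, Zfp933, Zfp748, Zfp28, Zfp790 and the genes named from the corepressor and CCR4-NOT lists were chosen after their values were seen.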

Additional observations from a re-analysis of the deposited data

How the results depend on the processing

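Every library weighed on these values. Leaving out 1 library at a time gave medians between 0.0262 and 0.0968, between 0 and 6 Zfp genes called higher and between 0 and 1 called lower. Without control siRNA replicate 1, Zfp512b and Zfp568 were called higher and Zfp503 lower, and 121 of 217 were higher in the mean; without control siRNA replicate 2, 6 were called higher and 172 were higher in the mean. With the replicate block 16 were called higher, with the block and the length trend removed 13, and with DESeq2, with DESeq2 and the block, and with no filter beyond 1 count 1 each, which was Zfp512b each time. Library size alone gave a median of 0.0863, with the median of all genes at 0.0329, log2 FPKM values gave 0.0799 with a pseudocount of 1 and 0.0896 with 0.1, where the medians of all genes were 0.0299 and 0.0350 (limma), no filter gave 0.0482, and the length trend removed gave 0.0422 without and 0.0414 with the block. A minimum mean count of 500 left 104 Zfp genes, 78 of them higher in the mean, at a median of 0.0467. Stk11 kept its direction but did not pass with library size alone (log2 fold change -0.52, adjusted p = 0.0633, edgeR) or on log2 FPKM values (-0.51 with a pseudocount of 1 and -0.52 with 0.1, adjusted p = 0.163 and 0.141, limma). Among the 217 Zfp genes, the replicate block changed no call other than the 16 given. Among the 126 tested Zfp genes under a mean count of 200 it called 2 higher (1.59%) and 1 lower (0.794%). Over all genes tested these shares were 6.59% and 6.99%.

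Among the 47 Zfp genes named, 12 changed sign under some setting. Leaving out single libraries gave log2 fold changes between -0.0462 and 0.049 for Zfp106, -0.0241 and 0.259 for Zfp131, -0.0338 and 0.0655 for Zfp143, -0.0933 and 0.514 for Zfp36, -0.0203 and 0.198 for Zfp36l1, -0.0378 and 0.13 for Zfp36l2, -0.338 and 0.111 for Zfp503, -0.407 and 0.144 for Zfp521, -0.0988 and 0.0834 for Zfp57, -0.0572 and 0.109 for Zfp626, -0.0988 and 0.0327 for Zfp740 and between -0.17 and 0.249 for Zfp763. Zfp57 was at 0.0211 with library size alone, at 0.0429 and 0.0450 on log2 FPKM values (pseudocount 1 and 0.1), and at 0.00969 without and 0.00961 with the block once the length trend was removed. Zfp106 was at -0.00531 with no filter and at -0.0287 without and -0.0276 with the block once the length trend was removed, and Zfp626 was at -6.74e-05 with the length trend removed and the block. The causes were not tested. With 2 libraries a group, an SE of a Zfp gene's log2 fold change was between 0.07 and 0.20.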
